A study of Mus musculus with 8 samples.

Results

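The genes described here are 9 tubulins, chosen by name: the alpha-tubulins Tuba1a, Tuba1b, Tuba1c, Tuba4a and Tuba8, the beta-tubulins Tubb2a, Tubb5 and Tubb6, and the gamma-tubulin Tubg1. Every probe set annotated to 1 of them alone and not listed at 0 on all arrays was taken, which gave 13 probe sets of 7 genes out of 24404 probe sets and 10720 genes measured. Tuba1b and Tuba1c had 0 probe sets of their own, because each shares its probe sets with a pseudogene. RNA came from LSK cells of mouse bone marrow, the lineage-negative fraction with Sca-1 and Kit on the surface that holds blood stem cells and early progenitors. The labels give 4 arrays of control mice (genotype WT) and 4 of mice with a conditional knockout of Msi2 (genotype Msi2KO), the gene of the RNA-binding protein Musashi-2. The driver and timing of the deletion, the strain, the age of the mice and any pooling are not given in the sources used here. The values are log2 signals, so a difference of 1 is a doubling, and differences are Msi2 KO minus control throughout.

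Alpha- and beta-tubulin form the dimers that polymerise into microtubules, the tracks of intracellular transport and the fibres of the mitotic spindle. Gamma-tubulin sits in a ring complex at the centrosome and starts new microtubules. Mammals carry several genes for each, whose proteins are very alike and differ mainly at their C-terminal tails, and the share of each isotype differs between tissues. Cells also hold tubulin messenger RNA in balance with free dimers: when dimers build up, the factor TTC5 recognises nascent tubulin on the ribosome and the message is degraded. Progenitors divide and depend on the spindle, and platelet-forming cells add the beta-tubulin Tubb1, which was listed at 0 here.

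The tubulin genes lie in clusters of close relatives. In the RefSeq table of GRCm38.p6, 0 other protein-coding genes lie between Tuba1b and Tuba1a, between Tuba1a and Tuba1c, between Tubb2a and Tubb2b, and between Tubg1 and Tubg2. Because the coding sequences are so similar, the suffix of a probe set matters. A name ending in _x_at marks probes that match other sequences as well, _s_at marks probes shared by transcripts of different genes, and _a_at marks alternative transcripts of 1 gene. Among the 13 probe sets, that of Tuba1a was an _x_at set and 1 of the Tubb2a sets an _s_at set.

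The members and this contrast were chosen with results of the arrays known, so their differences are given as a description, without a test. Over the whole table, limma called 0 of 10720 genes at an adjusted p under 0.05 (smallest adjusted p 0.176, 1222 at an unadjusted p under 0.05) and 0 of 24404 probe sets (smallest 0.0609, 2371, or 9.72%, at an unadjusted p under 0.05). The sources do not say whether the 4 arrays of a group came from separate mice, so p-values measure the spread between these arrays, which may be technical. Array medians lay between 7.03 and 7.07. Msi2 KO 3 stood apart, at 50.5 on the first principal component against -26.7 to 10.99 elsewhere, and it was the highest or lowest of the 8 arrays for 38.8% of all tested probe sets. Xist read 4.79 to 5.55 on 3 arrays (Msi2 KO 1, Msi2 KO 2 and control 1) and 11.9 to 12.5 on the other 5. Xist is transcribed in female cells, and the share of low-Xist arrays differed between the groups. Of the markers of other cells, the erythroid list was higher in KO for 14 of 14 measured genes. Its 2 genes with the smallest p were Zfpm1 (1.05) and Blvrb (1.72), a cofactor and an enzyme of red cell precursors. Its mean log2 level was 7.02 to 7.96 in controls and 7.82 to 9.41 in KO, with Alas2 at 0. The macrophage list was higher for 5 of 5 (levels 5.18 to 6.92 and 6.30 to 7.83), with Cd68 at 1.09 and Adgre1 at 0.41, while C1qa and Marco were at 0. Adgre1 was near the floor of the table, at 3.32 to 4.34. The macrophage level of Msi2 KO 3 (6.30) lay below those of controls 2 to 4. The endothelial and stromal list was lower for 4 of 5 (6.52 to 6.60 and 5.86 to 6.47), with Tie1 at -0.79 and Pecam1 at -0.64, and Kdr, Col1a1, Cxcl12 and Lepr at 0. None of these marker genes passed limma's threshold, and their part in the tubulin values was not tested.

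As to the label, the list of LSK genes had 1 of 8 measured genes higher and 7 lower in KO, 0 past the threshold (median -0.32). Its mean level was 9.02 to 9.29 in controls and 7.74 to 9.18 in KO, and its part in the tubulin values was not tested. Each of the 7 lower genes read lowest of the 8 arrays on Msi2 KO 3. Hlf read 7.07 there and 9.85 to 10.22 on the other KO arrays, and Mecom read 6.28 there and 8.25 to 8.86 on the others. Kit, the gene that was higher, read 8.39 to 9.19 on the 8 arrays (0.34), and Cd48 read 9.63 to 10.50 (-0.41). Cd3e, Cd3g, Cd4 and Cd8a of T cells, Ms4a1, Cd79a and Pax5 of B cells and Camp, Ltf and Itgam of granulocytes and monocytes were listed at 0. Transcripts of early lymphoid and myeloid precursors were present, with Vpreb1 (-1.19) and Cd79b (-0.42) lower in KO, and S100a8 (0.35) and Elane (0.33) higher, none past the threshold. Without control 1, S100a8 differed by 0.022 and Elane by -0.21. Cd5 was near the floor of the table, at 3.73 to 4.32. Ly6a, the gene of Sca-1, was not analysed here. In bulk RNA, fewer cells of a type and less RNA per cell cannot be told apart.

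The deleted gene was lower in KO to an uneven degree. On its brightest probe set, 1421230_a_at, Msi2 read 11.65, 11.40, 11.48 and 11.62 in the controls and 11.36, 11.20, 8.73 and 10.38 on Msi2 KO 1 to 4. On a linear scale, Msi2 KO 1 to 4 kept 88.7%, 79.0%, 14.3% and 44.9% of the mean control signal. The groups did not overlap, with the smallest reduction on Msi2 KO 1. In the limma fit the Msi2 difference was -1.12 at an adjusted p of 0.442, and without Msi2 KO 3 it was -0.55. The other 4 Msi2 probe sets differed by -1.44 to -0.95.

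Most tubulin signals lay at nearly the same level in both groups, and 2 genes had a probe set without overlap, in opposite directions. Tubb6, a broadly expressed beta-tubulin, was below every control on each of the 4 KO arrays, by 0.84 on the log2 scale, or 1.79-fold. Tubg1 was higher on all 4, by 0.33, or 1.25-fold. The dim Tuba8 set 1446771_at differed by more than Tubg1, at 0.58, but its groups overlapped. Of the 13 probe sets 8 were higher and 5 lower in KO, and 8 differed by less than 0.2 in either direction. The 7 genes, each by its brightest probe set, had a median difference of -0.01, with 3 higher and 4 lower, beside 0.00 over all genes. Groups did not overlap for 2 of the 13 probe sets (15.4%), 1 in each direction, where 6.09% of all tested probe sets did so, 3.12% with KO above and 2.96% with KO below. As the contrast was known when the genes were chosen, nothing is read from that share.

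**Figure D1:**
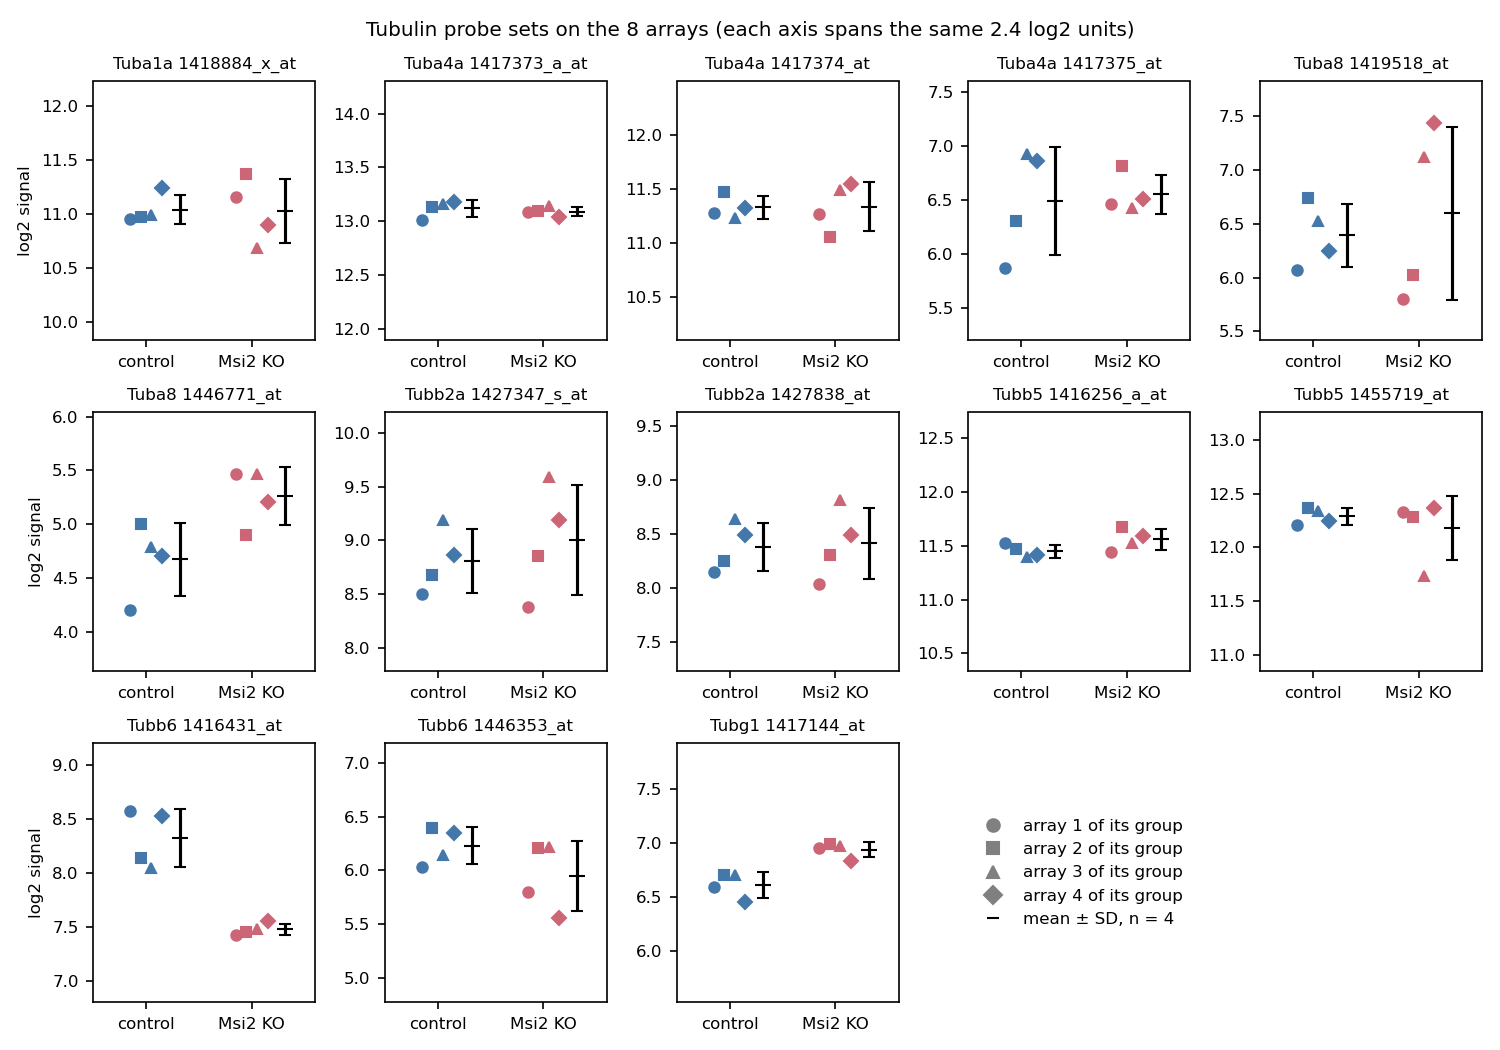
Log2 signal of the 13 tubulin probe sets on each array, control in blue and Msi2 KO in red. Marker shape gives the array number within its group, numbers are not paired between groups, and black bars show mean ± SD (n = 4). Tubb6 1416431_at (7.43 to 7.55 in KO, 8.04 to 8.57 in controls) and Tubg1 1417144_at (6.83 to 6.99 in KO, 6.45 to 6.70 in controls) are the panels without overlap.

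Of the alpha-tubulins, Tuba1a is the isotype best known from developing neurons, and Tuba1b and Tuba1c are its widely expressed neighbours. Tuba1a probe set 1418884_x_at read 10.96, 10.97, 10.99 and 11.24 in controls 1 to 4 and 11.16, 11.37, 10.69 and 10.90 on Msi2 KO 1 to 4. The KO arrays lay on both sides of the controls, with Msi2 KO 2 highest and Msi2 KO 3 lowest of all 8. The group means were 11.04 ± 0.13 and 11.03 ± 0.30 (SD, n = 4 each), a difference of -0.01 ± 0.17 (SE). Its sign turned when control 4, Msi2 KO 3 or Msi2 KO 4 was left out (-0.13 to 0.10 over the 8 arrays left out). It was 0.31 within the low-Xist arrays and -0.28 within the high-Xist arrays.

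Probe set 1423846_x_at, annotated jointly to Tuba1b and the pseudogene Gm5620, was among the steadiest of the family. It read 13.13, 13.12, 13.08 and 13.21 in controls and 13.09, 13.15, 13.09 and 13.05 in KO, a difference of -0.04 ± 0.11 (SE). The joint sets of Tuba1c and the pseudogene Gm6682 were lowest on Msi2 KO 3, as Tuba1a was. Set 1448232_x_at read 11.41 to 11.48 in controls and 11.37, 11.49, 10.72 and 11.45 in KO, with Msi2 KO 3 far below the other arrays, for a difference of -0.18 ± 0.18 (SE). The dimmer set 1416128_at read 5.79 to 6.05 in controls and 5.64, 5.79, 5.05 and 5.75 in KO, for a difference of -0.31 ± 0.18 (SE). Its groups were barely apart, with the highest KO array at 5.786 and the lowest control at 5.787. No value of a single gene is taken from these 3 joint sets.

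Tuba4a, which unlike most alpha-tubulin genes encodes no C-terminal tyrosine and is abundant in platelets, differed by -0.03 to 0.06 between group means on its 3 probe sets. The brightest, 1417373_a_at, read 13.01, 13.13, 13.16 and 13.18 in controls and 13.08, 13.09, 13.15 and 13.04 in KO. That set was also the least variable: only 1.13% of all tested probe sets had a smaller spread within groups (pooled SD 0.06). The difference was -0.03 ± 0.11 (SE). Set 1417374_at gave 0.01 ± 0.15 and the dim set 1417375_at 0.06 ± 0.24 (SE). In 1417375_at the controls alone ran from 5.87 to 6.93, wider than the KO arrays (6.43 to 6.81). The difference of that set was 0.77 within the low-Xist arrays and -0.23 within the high-Xist arrays.

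Tuba8, a divergent alpha-tubulin known from muscle and testis, varied most. Probe set 1419518_at read 6.07, 6.73, 6.52 and 6.24 in controls and 5.80, 6.03, 7.12 and 7.44 on Msi2 KO 1 to 4. KO arrays 1 and 2 lay below every control and KO arrays 3 and 4 above every control, so the group means (6.39 ± 0.30 and 6.59 ± 0.80, SD, n = 4 each) stand for a split. The pooled SD was 0.61, and 92.6% of tested probe sets varied less. The low arrays were those with low Xist: control 1, Msi2 KO 1 and Msi2 KO 2 read 5.80 to 6.07 and the high-Xist arrays 6.24 to 7.44. It was the only 1 of the 13 sets whose low-Xist and high-Xist arrays did not overlap, as happened for 6.48% of all tested probe sets. Within the high-Xist arrays (3 control, 2 KO) the KO minus control difference was 0.78, and within the low-Xist arrays (1 control, 2 KO) it was -0.15.

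The second Tuba8 set, 1446771_at, did not show the split. It read 4.21, 5.0, 4.79 and 4.71 in controls and 5.47, 4.90, 5.47 and 5.20 in KO, a difference of 0.58 ± 0.20 (SE). All KO arrays but Msi2 KO 2 lay above the controls, at a level near the dim end of the table, where the lowest measured value was 2.79. This set was the dimmest of the 13, the nearest to those listed at 0, and 0 of the sets annotated to a member alone were listed at 0. The difference was 0.98 within the low-Xist arrays and 0.50 within the high-Xist arrays.

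Among the beta-tubulins, Tubb2a followed a similar order of arrays to Tuba8 in KO. Set 1427347_s_at read 8.50, 8.68, 9.19 and 8.86 in controls and 8.39, 8.86, 9.58 and 9.19 in KO. Set 1427838_at read 8.15, 8.25, 8.63 and 8.49 in controls and 8.03, 8.30, 8.82 and 8.49 in KO. Both sets put Msi2 KO 1 lowest and Msi2 KO 3 highest of the 8 arrays, and the groups overlapped throughout. The differences were 0.20 ± 0.26 and 0.03 ± 0.19 (SE). Both depended on single arrays. Without Msi2 KO 3 they were 0.01 and -0.10, and without Msi2 KO 1 they were 0.40 and 0.16. Without control 1 they were 0.10 and -0.05, and without control 3 they were 0.33 and 0.12. With Xist as a covariate they were 0.35 and 0.13.

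Tubb5, the main beta-tubulin of dividing cells, gave different pictures on its 2 probe sets. Set 1416256_a_at read 11.53, 11.46, 11.39 and 11.41 in controls and 11.44, 11.68, 11.53 and 11.59 in KO, a difference of 0.11 ± 0.12 (SE). Only 2.30% of tested probe sets had a smaller spread within groups. Set 1455719_at read 12.21, 12.37, 12.34 and 12.24 in controls and 12.32, 12.28, 11.73 and 12.37 in KO, a difference of -0.11 ± 0.16 (SE). Its difference rested on Msi2 KO 3, the lowest array by a wide margin, and without it was 0.04. On the first set Msi2 KO 3 lay in the middle of the range.

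The promoters of 4 genes whose KO arrays lay far from each other are shown to let their core elements be compared. Tubb2a was highest on Msi2 KO 3, Tuba8 (set 1419518_at) was above every control on Msi2 KO 3 and Msi2 KO 4, and Tuba1a and Tubb5 (set 1455719_at) were lowest on Msi2 KO 3. Each run is the 250 bases before the annotated start site, from RefSeq (GRCm38.p6), 5′ to 3′ on the strand of the gene. Capitals mark matches, on either strand, to 4 motifs. The CCAAT box was searched by its name's letters and the GC box as GGGCGG. The TATA box was searched as TATAAA alone, so near matches, such as tatataa in the Tuba1a run, are not marked or counted. The CRE, the element bound by CREB, was searched as TGACGTCA after the sequences had been read, and no 2 motifs overlapped in the runs shown.
Tubb2a (chr13:34078009-34078258, minus strand): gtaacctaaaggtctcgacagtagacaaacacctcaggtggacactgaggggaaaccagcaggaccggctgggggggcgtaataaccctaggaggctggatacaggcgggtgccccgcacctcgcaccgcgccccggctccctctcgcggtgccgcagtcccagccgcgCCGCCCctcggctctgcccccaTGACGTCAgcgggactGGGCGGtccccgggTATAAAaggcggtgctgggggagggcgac
Tuba8 (chr6:121210484-121210733, plus strand): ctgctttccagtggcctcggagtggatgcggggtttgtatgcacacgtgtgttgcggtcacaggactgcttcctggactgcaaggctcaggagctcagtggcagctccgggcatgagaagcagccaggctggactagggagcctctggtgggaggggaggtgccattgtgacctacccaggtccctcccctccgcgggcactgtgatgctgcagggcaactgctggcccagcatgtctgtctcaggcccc
Tuba1a (chr15:98953502-98953751, minus strand): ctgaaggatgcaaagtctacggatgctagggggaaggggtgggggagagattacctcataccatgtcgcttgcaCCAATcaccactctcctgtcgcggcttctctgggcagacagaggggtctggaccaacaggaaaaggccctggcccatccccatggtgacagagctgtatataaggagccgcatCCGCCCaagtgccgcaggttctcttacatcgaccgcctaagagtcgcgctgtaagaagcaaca
Tubb5 (chr17:35838302-35838551, minus strand): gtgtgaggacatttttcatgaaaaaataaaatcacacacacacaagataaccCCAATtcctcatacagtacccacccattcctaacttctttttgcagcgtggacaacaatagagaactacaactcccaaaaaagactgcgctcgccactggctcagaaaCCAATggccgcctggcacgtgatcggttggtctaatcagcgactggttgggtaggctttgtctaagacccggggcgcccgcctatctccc
Tubb2a held 2 GC boxes, a CRE and a TATA box in these letters, while Tuba8 held 0 matches to any of the 4 motifs. Tubb5 held 2 CCAAT matches, and Tuba1a held 1 CCAAT and 1 GC box match. The members shared no motif throughout: of the 7 members with a promoter in the table, 3 held a CCAAT box, 4 a GC box, 1 a TATA box and 1 a CRE. Of 32851 windows of the same length, 33.8% held a CCAAT box, 32.7% a GC box, 12.4% a TATA box and 1.55% a CRE. A match is a description of the letters only. Tubb6 and Tubg1 are not shown.

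Tubb6 was the member with the largest difference. Probe set 1416431_at read 8.57, 8.14, 8.04 and 8.53 in controls 1 to 4 and 7.43, 7.46, 7.48 and 7.55 on Msi2 KO 1 to 4. The highest KO array lay 0.49 below the lowest control. The means were 8.32 ± 0.27 and 7.48 ± 0.05 (SD, n = 4 each), a difference of -0.84 ± 0.15 (SE), and 2.80% of tested genes differed more in either direction. The controls were spread, with control 1 and control 4 high, and the KO arrays lay close together. The difference was -1.13 within the low-Xist arrays (1 control, 2 KO) and -0.72 within the high-Xist arrays (3 control, 2 KO).

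**Figure D2:**
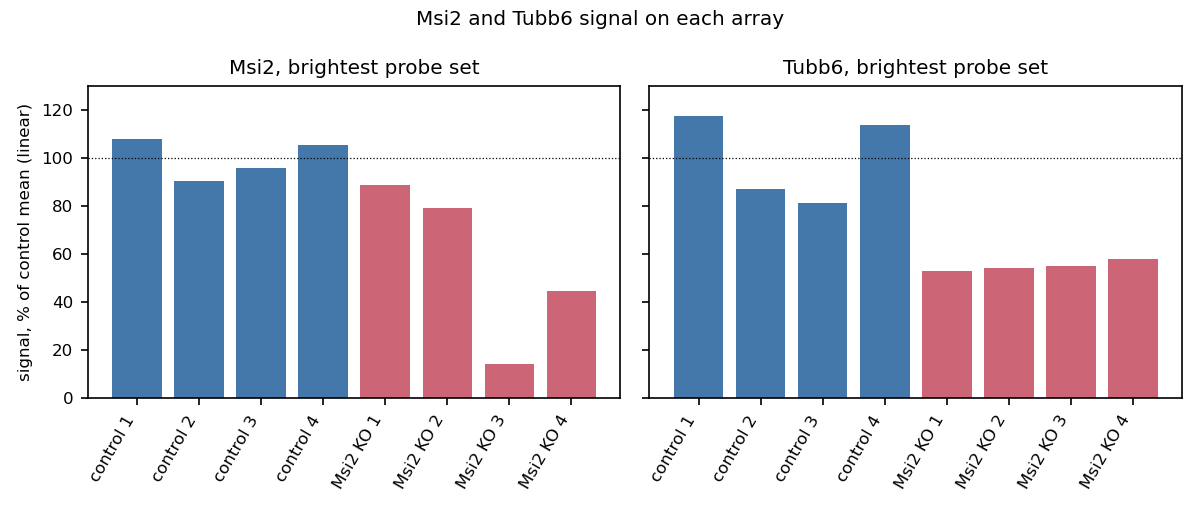
Linear signal on each array as a percentage of the control mean (dotted line), for Msi2 probe set 1421230_a_at and Tubb6 probe set 1416431_at, controls in blue and Msi2 KO in red. Msi2 ran from 14.3% to 88.7% on the KO arrays, while Tubb6 ran from 53.2% to 57.9%.

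On the linear scale, Tubb6 kept 53.2%, 54.2%, 55.0% and 57.9% of its mean control signal in Msi2 KO 1 to 4, and the controls lay between 81.4% and 118%. The KO arrays thus held nearly the same Tubb6 signal, whereas their Msi2 signal ranged from 14.3% to 88.7%. Msi2 KO 1 and Msi2 KO 2, which kept more Msi2 than the other KO arrays on all 5 Msi2 probe sets, had slightly less Tubb6 than Msi2 KO 3 and Msi2 KO 4. Which of them kept the most Msi2 differed by probe set, with 88.7% and 79.0% on 1421230_a_at but 56.7% and 62.2% on 1435520_at. Without Msi2 KO 3 the difference of 1416431_at was -0.84 as well.

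The second Tubb6 set, 1446353_at, was dimmer and showed less. It read 6.03, 6.40, 6.14 and 6.35 in controls and 5.80, 6.21, 6.22 and 5.56 in KO, a difference of -0.28 ± 0.18 (SE). Msi2 KO 1 and Msi2 KO 4 lay below every control and the other KO arrays within their range. As the mean of both sets, the Tubb6 difference was -0.56 ± 0.13 (SE). With single arrays left out, the difference ran from -0.94 to -0.76 for 1416431_at and from -0.37 to -0.15 for 1446353_at. For 1446353_at it was -0.02 within the low-Xist arrays and -0.41 within the high-Xist arrays.

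Tubg1, the gamma-tubulin that nucleates microtubules, was the member higher in KO without overlap. Probe set 1417144_at read 6.58, 6.70, 6.70 and 6.45 in controls and 6.95, 6.99, 6.96 and 6.83 in KO. The gap between the highest control and the lowest KO array was 0.13. The means were 6.61 ± 0.12 and 6.93 ± 0.07 (SD, n = 4 each), a difference of 0.33 ± 0.12 (SE). The spread within groups was small (pooled SD 0.10, with 3.71% of tested probe sets smaller), and the difference itself was moderate, since 24.7% of tested probe sets differed more in either direction. It was 0.39 within the low-Xist arrays, 0.28 within the high-Xist arrays and 0.32 without Msi2 KO 3. Tubg2, its neighbour and close copy, was listed at 0.

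**Figure D3:**
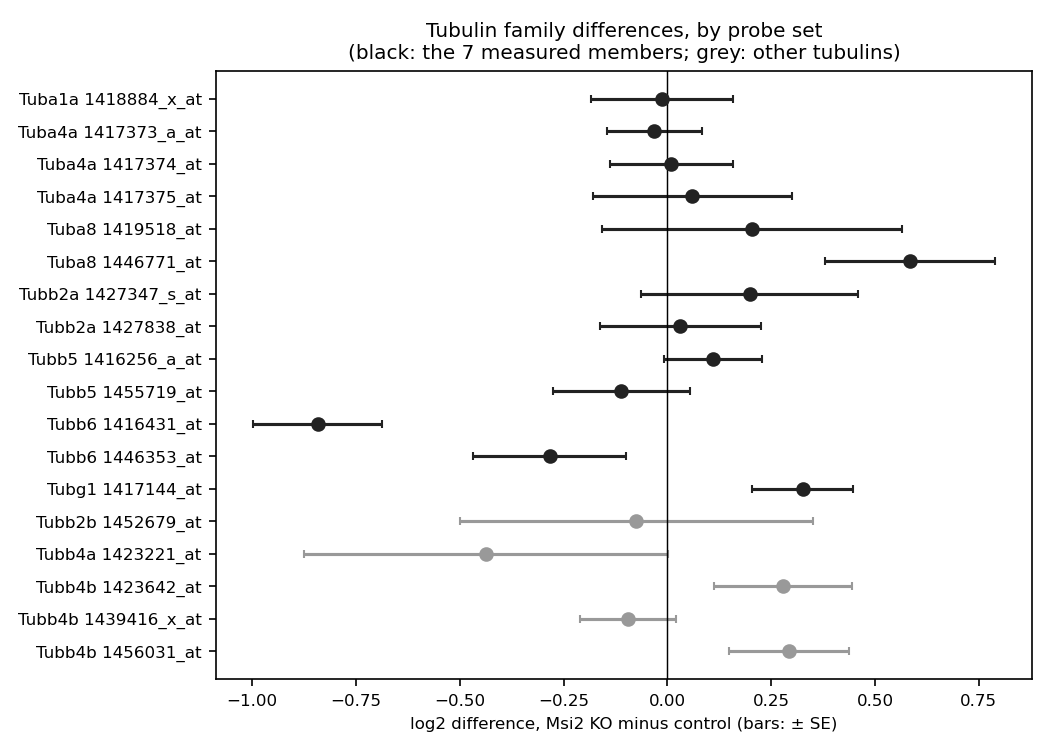
Log2 difference (Msi2 KO minus control) with its standard error for each tubulin probe set, black for the 7 measured members and grey for other tubulins. Tubb6 1416431_at is at -0.84 and Tubg1 at 0.33, while the Tuba1a and Tuba4a sets lie between -0.03 and 0.06.

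The other tubulins give the rest of the family. Of 11 further genes, Tubb4b, Tubb4a and Tubb2b were measured, Tuba3b, Tubb1, Tubb3, Tubg2, Tubd1 and Tube1 were listed at 0, and Tuba3a and Tubal3 were not analysed here. Tubb4b, a widely expressed beta-tubulin, read 10.33, 10.52, 10.38 and 10.40 in controls and 10.41, 10.71, 11.10 and 10.52 in KO on its bright set 1423642_at. Its KO arrays reached above the controls, Msi2 KO 3 most, and the groups overlapped (0.28 ± 0.17, SE; limma adjusted p 0.555). Without Msi2 KO 3 the difference was 0.14, and as the mean of all its sets 0.16. Its dim sets 1439416_x_at and 1456031_at gave -0.09 and 0.29, the latter at 2.89 to 3.51, the floor of the table. Tubb4a, known from brain, read 6.91 in control 2 and 4.74 to 5.47 on the other arrays (-0.44, limma adjusted p 0.759), and without control 2 the difference was 0.06. Tubb2b, the neighbour of Tubb2a, read 6.89, 5.50, 5.47 and 5.34 in controls and 4.82, 6.49, 5.99 and 5.60 in KO (-0.07, limma adjusted p 0.970), and without control 1 the difference was 0.29. It did not share the order of arrays seen for Tubb2a.

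Genes that serve tubulin were compared in 6 lists of microtubule biology, which hold 119 genes, 112 of them measured. None passed limma's threshold (0 of 112, smallest adjusted p 0.310), and 11 (9.82%) had an unadjusted p under 0.05, against 11.4% of all genes. Of the 112 genes 70 were higher and 42 lower in KO, with a median of 0.05 beside 0.00 over all genes. The groups did not overlap for 7 (6.25%), where 7.11% of all genes did so.

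The ring complex around Tubg1 had 7 of 10 genes higher and 0 past the threshold (median 0.07). Tubgcp2, a core subunit, read 7.54 to 8.04 in controls and 7.87 to 8.09 in KO (0.24 ± 0.16, SE), and the small subunit Mzt1 differed by -0.31 ± 0.21 (SE). Both overlapped between groups. None of the 10 ring complex genes had groups apart, where 7.11% of all genes did, so nothing is read from that count. As the mean of all its probe sets Mzt1 differed by 0.0059.

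The folding machinery of tubulin, the chaperonin CCT, prefoldin and the tubulin cofactors, had 16 of 21 genes higher and 0 past the threshold (median 0.07). Pfdn4, a prefoldin subunit, read 8.32, 8.0, 8.17 and 8.04 in controls and 8.60, 8.40, 8.78 and 8.60 in KO. Its groups did not overlap (0.46 ± 0.14, SE; limma adjusted p 0.310). Cct4, a chaperonin subunit, differed by 0.28 ± 0.14 (SE), with Msi2 KO 2 and Msi2 KO 3 highest, on an _x_at set. Once the _s_at and _x_at sets had been removed it was 0.12.

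The list of tubulin message decay, TTC5, its partner SCAPER and the CCR4-NOT deadenylase, had 7 of 12 genes higher and 5 lower, 0 past the threshold (median 0.04). Cnot11, the subunit of the deadenylase that SCAPER recruits, read 7.78, 7.71, 7.72 and 7.36 in controls and 6.92, 7.21, 7.54 and 7.34 in KO. Msi2 KO 1 and Msi2 KO 2 were lowest and the groups overlapped (-0.39 ± 0.17, SE; limma adjusted p 0.432). Cnot10, which binds Cnot11, differed by 0.35 ± 0.17 (SE) in the other direction. As the means of all their probe sets, Cnot11 differed by -0.01 and Cnot10 by 0.08. Ttc5, the only gene of this list with groups apart and named after its values were seen, read 8.19, 8.10, 8.08 and 7.96 in controls and 7.67, 7.88, 7.89 and 7.95 in KO (-0.23 ± 0.12, SE; limma adjusted p 0.510). Its closest arrays of opposite groups were nearly level.

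Enzymes that modify tubulin had 9 of 14 genes higher and 0 past the threshold (median 0.10). Ttll12, of the tubulin tyrosine ligase family, read 7.94, 8.20, 8.31 and 8.03 in controls and 8.32, 8.73, 9.44 and 8.65 in KO, with groups just apart (0.67 ± 0.23, SE; limma adjusted p 0.363). Sirt2, a deacetylase with alpha-tubulin among its substrates, differed by 0.52 ± 0.18 (SE) and overlapped between groups.

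Regulators of microtubule dynamics had 16 of 26 genes higher and 0 past the threshold (median 0.05). The widest difference was in Camsap2, a binder of microtubule minus ends, at 5.95, 7.68, 7.57 and 6.57 in controls and 7.84, 7.98, 9.48 and 7.69 in KO (1.30 ± 0.48, SE; limma adjusted p 0.388). Its KO arrays lay just above the controls, and Msi2 KO 3 was far the highest. Its relative Camsap1 differed by 0.45 ± 0.19 (SE). Motors were evenly divided, with 15 of 29 higher and 14 lower and 0 past the threshold (median 0.02). The dynactin subunit Dctn2 differed by 0.40 ± 0.16 (SE), and the kinesin-2 subunit Kif3b by -0.42 ± 0.17 (SE), or 0.28 once the _s_at and _x_at sets had been removed.

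**Figure D4:**
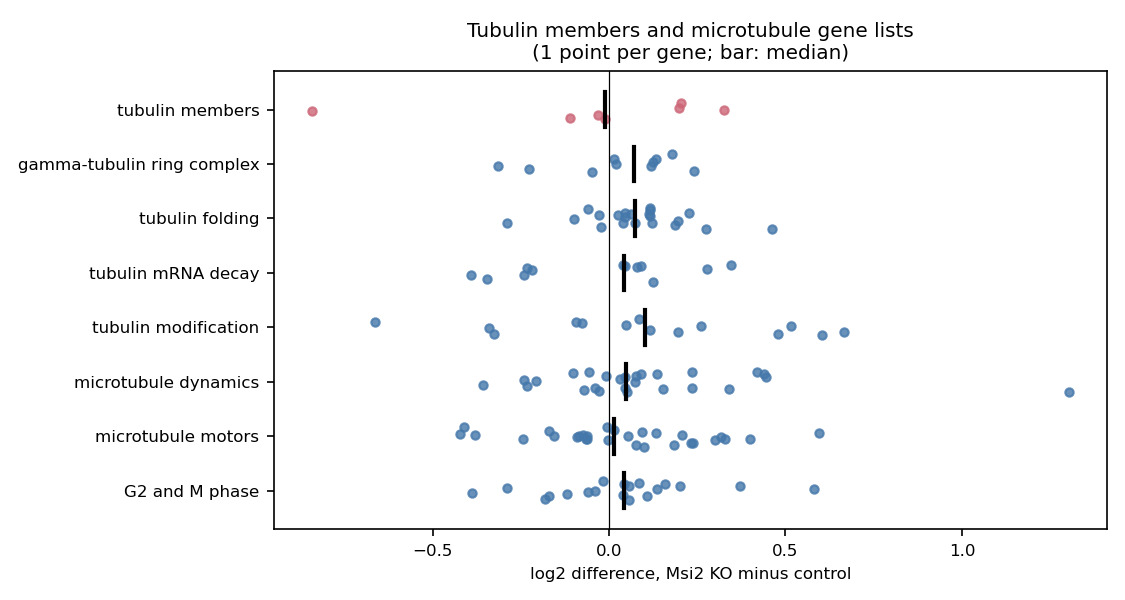
Log2 difference (Msi2 KO minus control) of each gene, by its brightest probe set, for the 7 measured tubulin members and for 7 gene lists, with the median of each as a bar. Medians of the lists lie between 0.02 and 0.10, that of the tubulins at -0.01, and Tubb6 (-0.84) and Camsap2 (1.30) are the widest points.

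The genes of G2 and M phase, when the spindle is built, are given beside the tubulins. Of 19 measured, 11 were higher and 8 lower, with 0 past the threshold (median 0.04), and their mean level was 9.13 to 9.31 in controls and 9.07 to 9.49 in KO. Cenpa, the centromeric histone, differed by 0.58 ± 0.17 (SE; limma adjusted p 0.299), or 0.31 as the mean of all its probe sets, and Ube2c, of the anaphase-promoting machinery, by 0.37 ± 0.18 (SE). Platelet genes, which mark cells rich in Tuba4a, had 3 of 6 higher and 3 lower (median 0.02). Selp differed by -1.10 and Ppbp by 0.75, with Gp1bb, Gp6, Gp9 and Tubb1 at 0 and a mean level of 6.96 to 7.91 in controls and 6.98 to 8.42 in KO.

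The genes whose signal went most like that of a member over the 8 arrays were ranked by Pearson correlation among all tested genes, as a description without a test. With Tubb6 went Rbm5 (r = 0.97), Slc25a40 (0.95), Zmym4 (0.95), Zc3h10 (0.94) and Mir1931 (0.94). After each group's mean was removed, these were 0.83, 0.87, 0.87, 0.85 and 0.56, so a part of the likeness lay within groups. With Tubg1 went Mul1 (0.98), Josd2 (0.97) and Get3 (0.96). With Tuba8 went Eif1b (0.98), Mzt2 of the gamma-tubulin ring complex (0.96) and Exoc7 (0.96), and with Tubb2a Tent5a (0.97), Got2 (0.97) and Gadd45a (0.96). With Tuba1a went Lasp1, Nfatc2 and Col4a1 (0.95 to 0.96), with Tuba4a Ccnt2, Asb7 and Gopc (0.93 to 0.95), and with Tubb5 Sash1, Itih5 and Zfand5 (0.96 to 0.98). All points share 8 arrays, and the highest of 10720 correlations is high by selection.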

How the data were processed

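LSK cell RNA of 4 control and 4 Msi2 KO samples was biotin-labelled for Affymetrix arrays, per the labels. Each deposited value is the log2 signal of a probe set, made by the authors with RMA, per the submitters' processing notes (version not given in the sources used here). RMA includes quantile normalization, which can compress differences. Of 45101 probe sets, 20664 (45.8%) were at 0 on all 8 arrays, through a step no source describes. They were left out, together with 64 control probe sets.

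34958 probe sets carried 1 gene name (34754 with the symbol updated by gene ID from RefSeq, GRCm38.p6), 932 several. A gene was represented by its singly named probe set with the highest mean. Groups were compared with limma 3.58.1 in R 4.3.3 (lmFit, eBayes, two-sided, Benjamini-Hochberg over all genes or probe sets, threshold 0.05). Adjusted p-values in the text are from the gene fit, and standard errors of members from the probe set fit. The procedure was tested on simulated data.

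The members and gene lists were chosen with earlier results of these data known. Named were all members, all measured tubulins, the 2 genes of each list with the smallest p, Msi2, and the 3 genes most correlated with each member (5 for Tubb6), without clone-like symbols. Ttc5 was added after its values were seen. Alternatives were other normalizations, filters, priors, array weights, probe set choices, the replicate number as a block, an Xist covariate and leaving out each array.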

Additional observations from a re-analysis of the deposited data

Results flagged for a closer look

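Within groups of 4 arrays, 42 sets of values were examined for a single array far from the other 3 (the gap over the range above Dixon's critical value). The rule marked 6, where 1 in 20 independent sets would give 2.1. The sets share arrays and in part genes, and the share over all probe sets was not computed. Nothing is therefore read from the count. Among the members, Tuba1a 1418884_x_at read 11.24 on control 4 against 10.96 to 10.99 on the other controls. Tubb5 1455719_at read 11.73 on Msi2 KO 3 against 12.28 to 12.37 on the other KO arrays. The joint Tuba1c and Gm6682 set 1448232_x_at read 10.72 on the same array against 11.37 to 11.49, and the joint set 1416128_at read 6.05 on control 1 against 5.79 to 5.83. Of the other tubulins, Tubb4a 1423221_at read 6.91 on control 2 against 4.84 to 4.96, and Tubb2b 1452679_at read 6.89 on control 1 against 5.34 to 5.50. Msi2 KO 3 was the highest or lowest of 8 arrays for 5 of the 13 member probe sets (38.5%), near its 38.8% over all probe sets.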

How the results depend on the processing

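The number of member genes with groups apart was 2 under all 17 alternatives but 1. Leaving out values below the median gave 1, because Tubg1 is not kept by that filter. Many of the alternatives could not lower the number, so little is read from it. Overlap was judged on the array values, which array weights, priors, the replicate block and the Xist covariate leave unchanged. Leaving out 1 array cannot make separate groups overlap. Deviations of same-numbered control and KO arrays correlated at -0.17 to 0.14, so the numbers were not taken as pairs. The replicate block gave 0 called genes and 0 called probe sets. Called genes numbered 0 throughout, except 5 with the Xist covariate and a range of 0 to 1 when single arrays were left out (1 without Msi2 KO 1). Called probe sets numbered 1 with array weights, 1 with repeated quantile normalization, 1 without values below the median, 2 with an intensity trend and robust prior, and 0 to 1 with arrays left out (1 without Msi2 KO 1). In the microtubule lists 0 genes were called under every alternative, including those chosen after seeing the data. None of the 13 member probe sets moved by more than its pooled SD on the alternatives run over all arrays or with 1 left out. Within the Xist strata some moved by more, such as Tuba1a (0.31 low-Xist, -0.28 high-Xist) and Tuba4a 1417375_at (0.77 low-Xist). Leaving out 1 array cannot move a difference by that much. The prior, the replicate block and the filter at the median leave it unchanged, so little is read from this bound. Some signs near 0 turned, as given for Tuba1a, Tubb2a and Tubb5, and for Tuba4a 1417374_at (-0.06 to 0.10) and 1417375_at (-0.15 to 0.21). For Tuba8 1419518_at the sign turned without Msi2 KO 4 (-0.08 to 0.47 with single arrays left out). Tubb6 moved to -0.56 as the mean of both sets. Signs of named genes other than the members turned for Kif3b (0.28 without shared probe sets), Mzt1 (0.0059 as the mean of all sets), Tubb2b (0.098 with array weights, -0.33 to 0.29 with arrays left out), Tubb4a (-0.63 to 0.060), Elane (-0.21 to 0.51) and Cd5 (0.020 with array weights, 0.012 with repeated quantile normalization, -0.12 to 0.074 with arrays left out). Without a change of sign, array weights gave 0.80 for Camsap2, 0.26 for Camsap1 and -0.47 for Tie1, the mean of all sets gave 0.65 for Zfpm1, and the difference was 0.27 for Adgre1 without Msi2 KO 1 and 0.47 for Ppbp without Msi2 KO 4. The cause of these changes was not tested. The number of arrays limits the precision, and the dim sets lie near the floor of the table.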
